A study of Mus musculus with 4 samples.

Results

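ETS transcription factors were examined in differentiating mouse erythroleukemia cells and in erythroid progenitors made from embryonic stem cells. The 10 genes were Spi1, Spib, Fli1, Erg, Ets1, Ets2, Elf1, Etv6, Gabpa and Elk3. They were chosen by name as members of the family, with earlier results of these data known. Each was taken where an array feature was annotated to that gene alone. All 10 had exactly 1 such feature, out of 19938 genes with a feature of their own. A further 15 measured ETS genes form a separate list below, so counts and medians of the 10 depend on that division. MEL is a mouse erythroleukemia line, grown in serum medium with puromycin and differentiated with 17b-estradiol for 48 hours. ES-EP is a line of erythroid progenitors derived from embryonic stem cells, expanded with erythropoietin, IGF-1, dexamethasone and stem cell factor and differentiated for 24 hours with erythropoietin, insulin and mifepristone, a glucocorticoid antagonist. Total RNA of 2 cultures of each, lettered A and B, was hybridised to Affymetrix Mouse Gene 1.0 ST arrays, 1 array per culture. Line, inducer, medium and hours cannot be told apart in this design, no undifferentiated culture was analysed here, and each system is a single line. The labels do not state a mouse strain, or which receptor makes the MEL cells respond to estradiol.

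ETS proteins share a winged helix-turn-helix domain that binds DNA around a GGAA core. They differ in the bases they prefer beside the core and in the partners they bind with, and many lineages of the blood are set by which of them a cell makes. Spi1 encodes PU.1, which drives myeloid and B cell fates and antagonises GATA1 in erythroid cells. Fli1 encodes an activator of megakaryocyte genes. Both loci are known as insertion sites of the Friend viruses, which activate them in mouse erythroleukemia. No insertion was measured here.

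The arrays of a group were close to each other, with r = 0.997 for MEL and 0.998 for ES-EP across 28944 features, against 0.948 to 0.949 between the groups. All 8 measured erythroid markers lay above the arrays' median feature in both systems, with summed log2 values of 83.3 to 83.7 in the MEL cultures and 94.0 in the ES-EP cultures. Of these 8, 7 were lower in MEL (limma, adjusted p under 0.05), where 36.9% of all genes were, and Epor was higher. The lower ones included Slc4a1, the anion exchanger gene of red cells, by 43.4-fold, and Alas2, the heme synthesis gene, by 2.51-fold. The part of this difference between the systems in the results for ETS genes was not tested. Of the macrophage and granulocyte markers 1 of 11 lay above that median in either system, of the B cell markers 0 of 6 in MEL and 1 in ES-EP, of the T cell markers 0 of 4 and 1, of the endothelial markers 1 of 6 in each, and of the pluripotency markers 0 of 5 in each. Stromal markers lay above it in 5 of 6 in MEL and 4 in ES-EP, with like sums of 37.0 to 37.6 and 37.1 to 37.2, and megakaryocyte markers in 4 of 5 and 3. All values are log2 RMA values, so a difference of 1 is a doubling, and a level is not comparable between genes because each feature has its own probes.

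Promoter sequence was available for 7 of the 10 genes. That of 3 is shown, the 250 bases before the annotated start, because Elk3 and Ets2 were higher in MEL and Gabpa was the member with the most negative difference. The sequences are from RefSeq, build GRCm38.p6, written 5′ to 3′ on the gene's strand. Capitals mark the ETS core GGAA, or TTCC where the core is on the other strand.
Elk3, chr10:93311160-93311409, minus strand: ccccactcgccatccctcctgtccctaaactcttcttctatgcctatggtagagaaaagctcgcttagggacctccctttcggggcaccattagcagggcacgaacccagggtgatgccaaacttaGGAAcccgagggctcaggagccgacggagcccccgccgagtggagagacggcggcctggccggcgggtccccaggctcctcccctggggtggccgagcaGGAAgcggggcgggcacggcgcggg
Ets2, chr16:95702157-95702406, plus strand: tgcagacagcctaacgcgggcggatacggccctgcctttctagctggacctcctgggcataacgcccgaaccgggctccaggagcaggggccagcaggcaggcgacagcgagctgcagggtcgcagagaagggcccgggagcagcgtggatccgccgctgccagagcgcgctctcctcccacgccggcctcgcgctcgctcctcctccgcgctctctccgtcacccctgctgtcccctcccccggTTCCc
Gabpa, chr16:84834874-84835123, plus strand: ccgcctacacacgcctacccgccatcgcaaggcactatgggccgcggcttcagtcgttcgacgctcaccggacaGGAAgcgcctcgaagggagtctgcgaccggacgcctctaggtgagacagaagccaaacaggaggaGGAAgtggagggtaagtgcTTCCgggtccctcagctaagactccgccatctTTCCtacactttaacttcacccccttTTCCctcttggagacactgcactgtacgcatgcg
The window of Elk3 held 2 cores, that of Ets2 held 1 and that of Gabpa held 5. A core is common: 93.4% of 32851 promoter windows of this length held at least 1, with a median of 3. The longer motif CCGGAAG, searched on both strands and containing the core, was found in the Gabpa window and in 6.91% of all windows. GAGGAAG, a form favoured by PU.1 that also contains the core, was found in the Gabpa window and in 10.6% of all windows. Neither was found in the windows of Elk3 and Ets2. Both were also absent from the windows of Spib and Elf1, which were lower in MEL, and of Etv6 and Erg. So the motifs did not go with the direction of the difference. The GATA motif AGATAA, in 9.99% of all windows, was found in none of the 3 shown, and in 1 window of Erg. A match describes the letters only, and no binding was measured.

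Transcripts of Fli1, Elk3 and Ets2 were higher in MEL, and those of Gabpa, Spib and Elf1 were slightly lower. Spi1, Erg, Ets1 and Etv6 did not pass. Thus 3 of 10 members were higher, where 21.8% of all genes were, and 3 of 10 were lower, where 36.9% of all genes were (limma, adjusted p under 0.05). At a difference of at least 2-fold, 2 members were higher, against 7.38% of all genes, and 0 were lower, against 4.93%. The median difference of the members was 0.05, and that of all genes was -0.14. These medians were 0.11 and -0.02 after quantile normalization, 0.20 and 0.02 after cyclic loess, and 0.12 and -0.07 with array medians centred. With single cultures left out the members' median was 0.10 without MEL culture A, 0.10 without MEL culture B, 0.12 without ES-EP culture A and 0.02 without ES-EP culture B. After quantile normalization 1 member was lower, after cyclic loess 1, and with array medians centred 0, where the prior of the fit changed as well as the scaling. With a culture left out, which leaves 1 residual degree of freedom, 0 members were lower without MEL culture A, ES-EP culture A or ES-EP culture B. Without ES-EP culture A or B the differences were -0.34 and -0.33 for Gabpa, -0.29 and -0.35 for Spib, and -0.26 and -0.34 for Elf1, near those from all 4 arrays. Without MEL culture A they were -0.23, -0.23 and -0.24, and 5 members were higher.

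**Figure D1:**
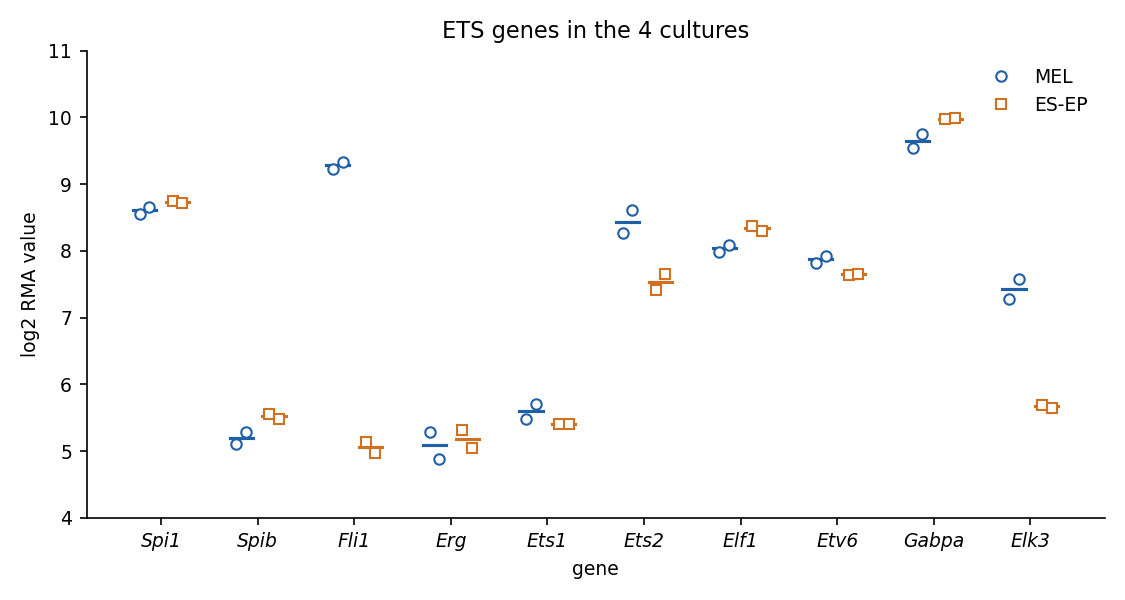
Log2 RMA value of the 10 ETS genes in each culture, with MEL as circles, ES-EP as squares and a bar at each group's mean (n = 2). The groups lie far apart for Fli1, Elk3 and Ets2, and the cultures overlap for Erg; heights are not comparable between genes.

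Fli1 and Erg are the paralogs that activate megakaryocyte and endothelial genes. Fli1 was at 9.23 in MEL culture A and 9.33 in culture B, and at 5.13 and 4.98 in ES-EP cultures A and B. The groups did not overlap, and the gap between them was far wider than either pair of cultures. The log2 difference was 4.23 ± 0.09 (SE, n = 2 per group), which is 18.7-fold, with an adjusted p of 1.26e-07 in limma. The SE here and below is limma's, which draws on the spread of all features as well as on these cultures. Of the 19938 genes 34 had a larger positive measured difference. The ES-EP cultures lay below the arrays' median feature, and without detection calls such a value was not told from background. The fold of Fli1 may then be a lower bound, and so may those of Elk3, Ehf, Pf4 and Nr4a1 given below. The dimmer group of these genes also lay under that median, as did that of others such as Jun and Bcl2. Whether any of them was at background was not tested. The rank of Fli1 holds for measured differences. Over all the alternatives the difference of Fli1 ran from 4.15 to 4.38, and it passed in each.

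Erg was dim in both systems. Its values were 5.29 and 4.88 in MEL cultures A and B, and 5.31 and 5.04 in the ES-EP cultures. The groups overlapped, and culture A was above culture B in each. The difference was -0.09, with a 95% interval of -0.45 to 0.26 (limma, adjusted p = 0.629), and it was positive after quantile normalization (0.10) and cyclic loess (0.13), and without MEL culture B (0.11) or ES-EP culture A (0.04). Its interval leaves out a 2-fold difference of the measured values in either direction. Both groups lay below the arrays' median feature, where a value was not told from background, so the interval does not bound a difference of the transcripts.

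**Figure D2:**
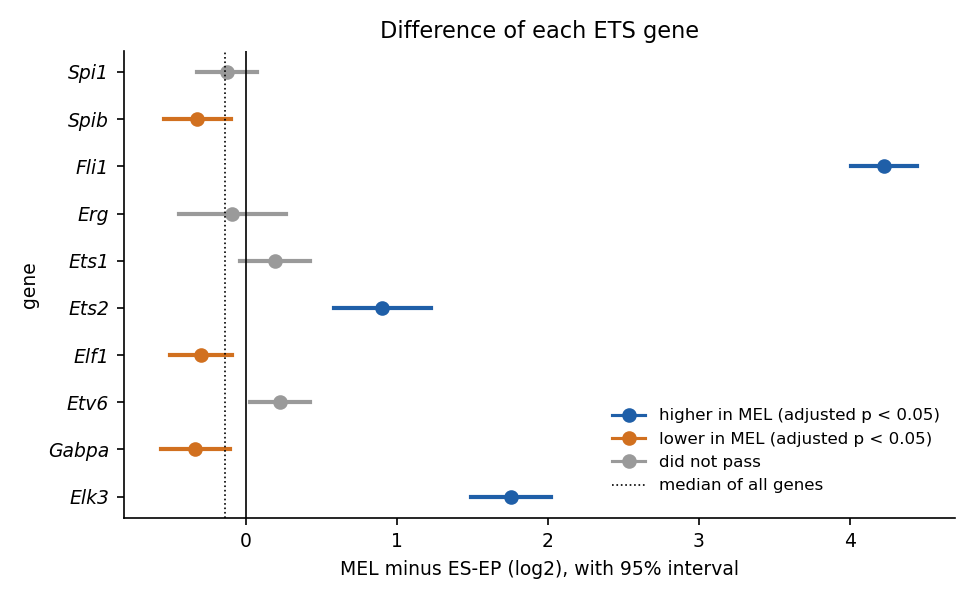
MEL minus ES-EP difference (log2) of each ETS gene with its 95% interval from limma; the dotted line is the median of all genes, -0.14. Fli1, Elk3 and Ets2 lie to the right of 0 by 4.23, 1.76 and 0.90, and the other 7 lie between -0.33 and 0.23, with Erg turning positive under quantile normalization and cyclic loess.

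Elk3 was the second member that exceeded 2-fold. Its product, also called Net, is a ternary complex factor that joins serum response factor on promoters of immediate early genes and represses them until the ERK kinases phosphorylate it. Elk3 was at 7.28 and 7.58 in MEL cultures A and B, and at 5.70 and 5.64 in the ES-EP cultures. The groups did not overlap, though the MEL cultures stood 0.30 apart. Elk3 was 3.38-fold higher in MEL (log2 difference 1.76 ± 0.11, SE, n = 2 per group, limma adjusted p = 1.66e-05). Its difference ran from 1.61 to 1.91 over the alternatives and passed in each.

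Ets1 and Ets2 encode the founding pair of the family, which ERK phosphorylation activates. Ets2 was at 8.27 and 8.61 in MEL cultures A and B, and at 7.41 and 7.66 in the ES-EP cultures. Both MEL cultures lay above both ES-EP cultures, with B above A in each system. Ets2 was 1.87-fold higher (0.90 ± 0.14, SE, n = 2 per group, limma adjusted p = 0.00115), with a range of 0.74 to 1.07 over the alternatives, and it passed in each. Ets1 was at 5.49 and 5.71 in MEL and 5.40 and 5.40 in ES-EP cells. Its groups did not overlap, but the difference of 0.20 did not pass (95% interval -0.04 to 0.43, limma adjusted p = 0.130). It passed after quantile normalization (0.34, adjusted p = 0.0475), after cyclic loess (0.39, adjusted p = 0.0434) and without MEL culture A (0.30, adjusted p = 0.0277), so the call for Ets1 rests on these choices.

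Spi1 and Spib form the subfamily whose products bind purine-rich sites in myeloid and B cells. Spi1 was at 8.56 and 8.66 in MEL cultures A and B, and at 8.75 and 8.72 in the ES-EP cultures. Both MEL cultures lay just below both ES-EP cultures. The difference was -0.12, with a 95% interval of -0.32 to 0.07 (limma, adjusted p = 0.243), which leaves out a 2-fold difference in either direction. The signal of Spi1 was well above the arrays' medians of 5.78 to 5.91 in both the leukemic and the stem cell derived cultures. Spib was at 5.11 and 5.28 in MEL and at 5.55 and 5.49 in ES-EP cells, below those medians in both. Spib was 1.25-fold lower in MEL (-0.32 ± 0.09, SE, n = 2 per group, limma adjusted p = 0.0219), where the median difference of 4984 genes of like level was -0.20. That call was lost after quantile normalization (-0.16, adjusted p = 0.227) and cyclic loess (-0.11, adjusted p = 0.457), with array medians centred (-0.26, adjusted p = 0.0884), and without MEL culture A or either ES-EP culture.

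Elf1, Gabpa and Etv6 are broadly made members. Elf1 activates blood and endothelial genes, Gabpa is the DNA-binding subunit of GABP, a regulator of housekeeping and mitochondrial genes, and Etv6 encodes a repressor needed by stem cells and megakaryocytes. Elf1 was at 7.98 and 8.10 in MEL and at 8.38 and 8.30 in ES-EP cells, without overlap, and was 1.23-fold lower in MEL (-0.30 ± 0.09, SE, n = 2 per group, limma adjusted p = 0.0224). Gabpa was at 9.55 and 9.75 in MEL and at 9.98 and 9.99 in ES-EP cells, also without overlap, and was 1.26-fold lower (-0.33 ± 0.10, SE, n = 2 per group, limma adjusted p = 0.0207). Etv6 went the other way, at 7.82 and 7.93 in MEL against 7.64 and 7.65 in ES-EP cells. Its difference of 0.23 did not pass (limma, adjusted p = 0.0552). The calls of Elf1 and Gabpa were both lost with array medians centred (adjusted p = 0.124 and 0.0723) and without MEL culture A or either ES-EP culture. That of Gabpa was also lost after quantile normalization (-0.20, adjusted p = 0.0708) and cyclic loess (-0.22, adjusted p = 0.0541). Etv6 passed after cyclic loess (0.28, adjusted p = 0.0203), without MEL culture A (0.28, adjusted p = 0.0350), with dim features left out (adjusted p = 0.0324) and with only the features of 1 gene (adjusted p = 0.0499).

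**Figure D3:**
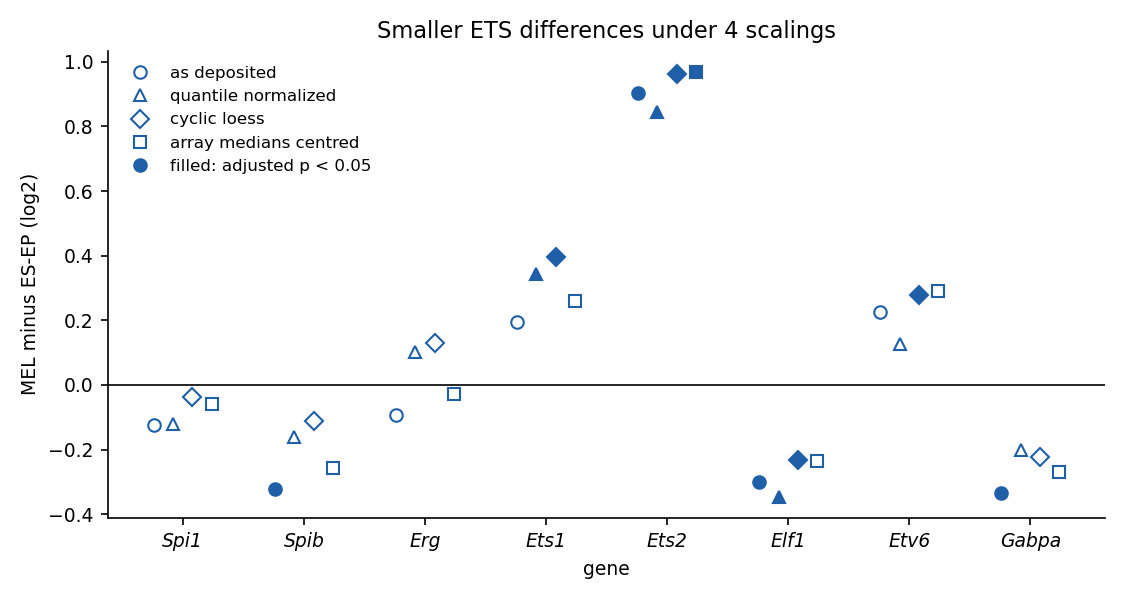
MEL minus ES-EP difference (log2) of the 8 ETS genes under 2-fold, as deposited and under 3 other scalings; filled symbols passed at an adjusted p under 0.05. Ets2 passed under all 4, Spi1 under none, Erg changed sign after quantile normalization (0.10) and cyclic loess (0.13), and the calls of Spib, Ets1, Elf1, Etv6 and Gabpa changed with the scaling.

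In MEL, culture B was above culture A for 9 of the 10 members, Erg being the exception, with gaps of 0.10 to 0.33. Over all genes the median of B minus A was 0.09 among the 4985 brightest genes and 0.06 among the next 4984, and -0.11 and -0.05 among the dimmer groups of like size. The gaps of Ets2 (0.33) and Elk3 (0.30) were the widest of these 9. The part of such array differences in the calls of the members was not tested beyond leaving each array out. The median MEL minus ES-EP difference was -0.11 among the brightest of these groups of genes, 0.06 among the next, and -0.20 and -0.18 among the dimmer ones. Dim genes as a group were thus lower in MEL. The part of this shift in small lower differences of dim genes, here and in the lists below, was not tested.

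The features whose 4 RMA values lay closest to those of Fli1 were Cap2, which encodes an adenylyl cyclase-associated protein that binds actin, Ehd3, which encodes a protein of endocytic membrane traffic, and Enpp4, which encodes a membrane phosphodiesterase. Their Euclidean distances from Fli1 over the 4 arrays were 0.20, 0.29 and 0.33 on the log2 scale. Cap2 was at 9.34 and 9.48 in MEL and 5.07 and 5.04 in ES-EP cells. The distance is taken over the RMA values of features with different probes, so its order depends on probe response as well as on the transcripts, and it is given as a description of these 4 arrays.

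On the chromosome, no neighbour of Fli1 passed as higher in the values as deposited. Fli1 and Ets1 are adjacent protein-coding genes on chromosome 9, and so are Erg and Ets2 on chromosome 16. Of the 3 measured genes on either side of Fli1, 0 were higher (all genes 21.8%), 2 were lower (36.9%) and 4 did not pass. The potassium channel genes Kcnj1 and Kcnj5 were dim in every array, at 4.20 to 4.88, with differences of 0.04 and 0.05. They passed as higher after quantile normalization (0.26 and 0.27) and cyclic loess (0.25 and 0.26). The neighbour Ets1 also passed as higher under these 2 scalings (0.34 and 0.39). Arhgap32 changed sign under them, from -0.15 to 0.08 and 0.07, without passing. On the other side of Ets1, St3gal4, a sialyltransferase gene, was 4.24-fold lower in MEL (-2.08 ± 0.08, SE, n = 2 per group, limma adjusted p = 1.55e-06). Kirrel3, an adhesion gene, was at -0.39 and lost its call after cyclic loess (-0.19, adjusted p = 0.0848) and without MEL culture B or ES-EP culture A.

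Around Spi1, on chromosome 2, neighbours differed in both directions while Spi1 did not pass. Higher in MEL were Nr1h3, which encodes the oxysterol receptor LXR alpha (0.92), Mybpc3, a myosin binding protein gene of the heart (0.68), and the zinc transporter gene Slc39a13 (0.43). Psmc3, a proteasome ATPase gene, and Rapsn, which clusters acetylcholine receptors, were lower (-0.35 and -0.37), and Madd did not pass (0.12). The calls of Psmc3 and Rapsn were lost after quantile normalization (limma, adjusted p = 0.0543 and 0.211). That of Psmc3 was also lost with array medians centred and without either ES-EP culture, and that of Rapsn after cyclic loess and without MEL culture A, MEL culture B or ES-EP culture A. Beside Erg and Ets2, the chromatin reader gene Brwd1 was higher (0.80), the potassium channel genes Kcnj15 and Kcnj6 were lower (-0.66 and -0.24), and Psmg1, Hmgn1 and Dyrk1a did not pass (0.04, 0.08 and 0.12). The call of Kcnj6 was lost under all 3 other scalings and without MEL culture B or either ES-EP culture. Psmg1 turned negative without MEL culture B (-0.01) and without ES-EP culture A (-0.01), and Dyrk1a passed as higher after quantile normalization (0.27) and cyclic loess (0.23).

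**Figure D4:**
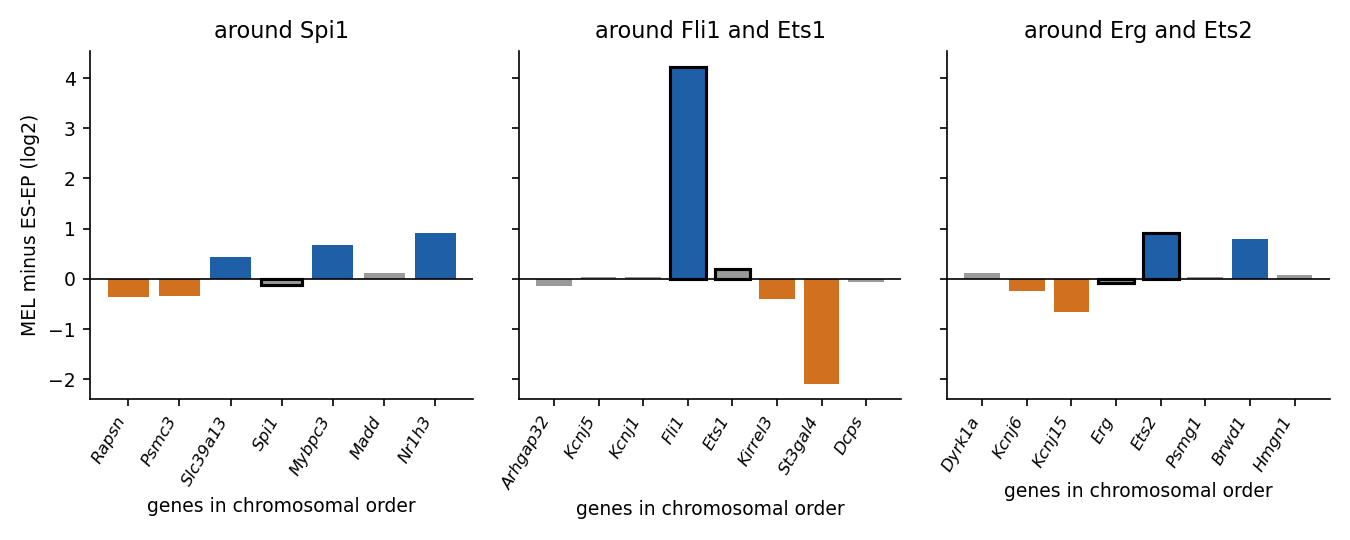
MEL minus ES-EP difference (log2) of the ETS genes (outlined) and the 3 measured protein-coding genes on either side, in chromosomal order; blue bars were higher, orange lower, and grey did not pass. Fli1 stands at 4.23 between Kcnj1 at 0.04 and Ets1 at 0.20, and of the bars drawn those of Arhgap32 and Erg change sign after quantile normalization and cyclic loess and that of Dcps after cyclic loess.

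Among the other ETS genes, 3 of 15 measured were higher in MEL (all genes 21.8%) and 3 lower (36.9%). Their median was -0.06, against -0.14 for all genes. The list's median was -0.03 without MEL culture A, -0.09 without MEL culture B and -0.04 without ES-EP culture A. Etv3, which encodes a repressor, was at 9.05 and 9.12 in MEL and 8.03 and 7.95 in ES-EP cells (1.10, limma adjusted p = 3.89e-05). Elk1, a second ternary complex factor beside Elk3, was 0.75 higher, while the third such gene, Elk4, differed by -0.15 and did not pass (limma, adjusted p = 0.248), though it did without MEL culture B (-0.28, adjusted p = 0.0405). Elf4, named after its value was seen, was also higher (0.75). Ehf, an ETS gene of epithelia, went the other way: it was at 3.88 and 4.03 in MEL and 6.14 and 6.03 in ES-EP cells, 4.36-fold lower in MEL (limma, adjusted p = 2.59e-06). Spdef (-0.62) and Elf5 (-0.51), further epithelial members, were lower, and Elf5 lost its call after quantile normalization and cyclic loess and without MEL culture B or ES-EP culture B. After cyclic loess 6 genes were higher and 2 lower, after quantile normalization 5 and 2, and the median was 0.16 and -0.01.

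Of 19 partner proteins of ETS factors 8 were higher in MEL (all genes 21.8%) and 7 lower (36.9%), with a median of 0.18. That median was 0.05 after quantile normalization, 0.28 after cyclic loess and 0.01 without ES-EP culture B. The beta subunits of GABP went opposite ways. Gabpb1, one of the beta subunits that carry the activation domain, was at 8.58 and 8.74 in MEL and 9.60 and 9.67 in ES-EP cells, 1.96-fold lower in MEL (limma, adjusted p = 1.17e-04). Gabpb2, the other beta subunit, was at 10.89 and 11.03 in MEL and 9.88 and 9.96 in ES-EP cells, 2.05-fold higher (limma, adjusted p = 7.80e-05). Cebpa, a myeloid partner of PU.1, had the most positive difference of the list (1.32), and Jun, which joins ETS factors on composite sites, the most negative: Jun was at 4.94 and 4.81 in MEL and 8.20 and 8.09 in ES-EP cells. Lmo2, a bridging protein of erythroid complexes, was also lower (-1.24), and Irf8, a partner of PU.1, did not pass (-0.03, adjusted p = 0.826), its sign turning under the 3 other scalings.

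Genes that PU.1 is known to activate went both ways, with 5 of 24 higher and 9 lower in MEL and a median of -0.21. Over all genes 21.8% were higher and 36.9% lower, with a median of -0.14, near the shares and the median of this list. Of these 24, 7 remained with features under the median left out, 3 higher and 4 lower, and the median over the 24 was -0.08 without MEL culture B and -0.14 without ES-EP culture B. Fcer1g (1.47) and Fcgr1 (1.25), Fc receptor genes, led the higher ones, followed by the integrin gene Itgb2 (1.04), the kinase gene Btk (0.94) and the oxidase subunit gene Ncf4 (0.73), the last 3 named after their values were seen. Cd14 (-0.99) and Csf1r (-0.92), markers of monocytes and macrophages, led the lower ones, at 4.10 to 4.80 in the MEL cultures and 5.17 to 5.69 in the ES-EP cultures. After quantile normalization and after cyclic loess 7 were higher and 6 lower, and the median was above 0 (0.01 and 0.005). Spi1 itself, as given above, differed by -0.12.

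Of 14 listed genes that Fli1 and its partners activate in megakaryocytes, 9 were measured, and the others are not known here. The measured ones were higher in MEL or did not pass: 5 of 9 were higher (all genes 21.8%) and 0 lower (36.9%). Their median was 0.67, and the counts were the same under all 3 other scalings. Pf4, the platelet chemokine, was at 8.39 and 8.29 in MEL and 4.05 and 3.86 in ES-EP cells, 20.8-fold higher (limma, adjusted p = 1.27e-07). Itga2b, the platelet integrin alpha chain, was at 9.14 and 9.09 in MEL and 6.88 and 6.91 in ES-EP cells, 4.67-fold higher (limma, adjusted p = 1.06e-06). Both were clear of any overlap. Gp5 (1.28), Treml1 (0.85) and Ppbp (0.67), named after their values were seen, were also higher. Ppbp lay under the arrays' medians in all 4 cultures, at 4.56 and 4.39 in MEL and 3.80 and 3.80 in ES-EP cells. There a value was not told from background. With features under the median left out, 6 of the 9 genes remained, 4 higher and 0 lower. Vwf (0.06), whose sign turned without ES-EP culture A (-0.05), did not pass, nor did Gp9 (-0.06), whose sign turned after cyclic loess, with array medians centred and without ES-EP culture B (0.13), nor Itga2 (-0.19) and Myl9 (-0.20), whose sign turned after quantile normalization and cyclic loess. The list's median is to be read beside the level of megakaryocyte markers, whose 5 measured genes, all on this list too, had summed log2 values of 34.96 and 35.39 in the MEL cultures and 27.68 and 28.12 in the ES-EP cultures. In such bulk RNA, fewer cells of a kind and less RNA per cell cannot be told apart, and whether some MEL cells carried these transcripts was not tested.

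Of the endothelial genes bound by Fli1 and Erg, 2 of 14 were higher (all genes 21.8%) and 4 lower (36.9%). Their median was -0.16, against -0.14 for all genes. With features under the median left out, 4 of the 14 remained, of which 1 was higher and 0 were lower. The 4 lower genes thus lay under that median by their mean over the 4 arrays. Of these, Eng was above the arrays' medians in ES-EP cultures A and B (6.02 and 6.41) and below them in MEL (5.02 and 4.84). Under cyclic loess 3 were higher and 1 lower, and the median was 0.04, as it was 0.01 after quantile normalization. The angiopoietin receptor gene Tek was higher (1.48), at 6.49 and 6.55 in MEL and 5.04 and 5.05 in ES-EP cells, as was Egfl7 (0.36), which lost its call without ES-EP culture A or B, leaving 1 gene higher. Eng, a receptor of the TGF beta family, was lower (-1.29), as was Tie1 (-0.47), which lost its call after cyclic loess. Cdh5 and Kdr, defining endothelial genes, lay at 4.50 to 5.16 in all 4 cultures. Of 6 genes linked to FLI1 in Friend erythroleukemia, 2 were higher (all genes 21.8%) and 3 lower (36.9%), with a median of -0.27. That median was -0.16 after quantile normalization, -0.15 after cyclic loess and -0.19 without MEL culture A. The list was not divided into genes raised and genes lowered by FLI1, so its counts and median give no direction for FLI1 action. Bcl2, the survival gene, was at 9.55 and 9.68 in MEL and 5.47 and 5.27 in ES-EP cells, and Epor was also higher (0.42). Rb1, which encodes the retinoblastoma protein (-0.62), Tnc (-0.54) and, named after its value was seen, the phosphatase gene Inpp5d (-0.47) were lower.

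**Figure D5:**
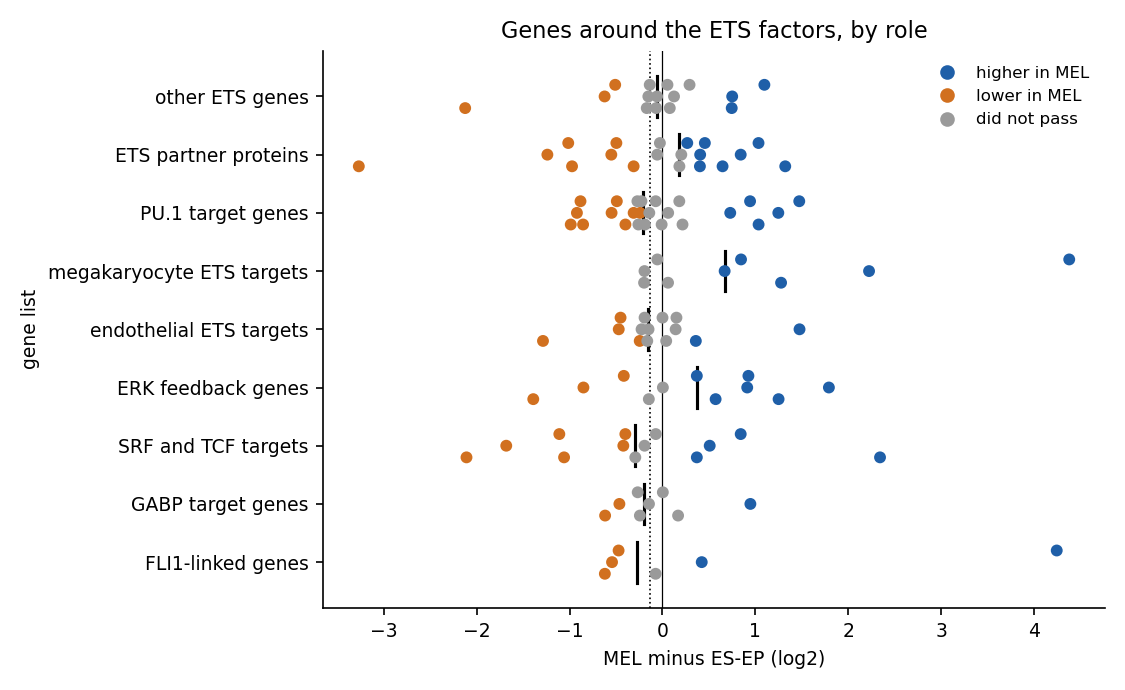
MEL minus ES-EP difference (log2) of each measured gene in 9 lists around the ETS factors, coloured by call, with a bar at each list's median and a dotted line at the median of all genes, -0.14. The megakaryocyte targets, 9 measured of 14 listed, have 5 genes higher and 0 lower, where 21.8% and 36.9% of all genes were. The medians of the PU.1 and endothelial lists are above 0 under quantile normalization and under cyclic loess. That of the other ETS genes is above 0 after cyclic loess and with array medians centred.

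Genes of the ERK pathway, which acts through several ETS proteins, went both ways. Of 11 genes listed for its feedback 6 were higher in MEL (all genes 21.8%) and 3 lower (36.9%), with a median of 0.37. Cic (0.57), named after its value was seen, was 1 of these 6. It encodes a repressor and is not an ERK-induced feedback gene, so the count mixes roles. Phlda1 (1.79) and the ERK phosphatase gene Dusp6 (1.25) led the higher ones. With features under the median left out, 6 of the 11 genes remained, 4 higher and 1 lower, so most lower calls were of dim features. The 3 Sprouty genes listed were lower, at -1.39 for Spry1, -0.85 for Spry2 and -0.42 for Spry4, the last named after its value was seen and without its call when ES-EP culture B was left out. Of 13 genes driven by serum response factor with ternary complex factors, 4 were higher (all genes 21.8%) and 6 lower (36.9%). Their median was -0.29, and it was -0.18 after cyclic loess and -0.19 without MEL culture A. The nuclear receptor gene Nr4a1 was 5.07-fold higher, at 7.10 and 7.02 in MEL and 4.73 and 4.70 in ES-EP cells, and Srf itself was higher (0.84). Dusp1 was 4.32-fold lower, at 8.72 and 8.89 in MEL and 10.86 and 10.97 in ES-EP cells, and Ier2 was also lower (-1.68).

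Of 8 genes controlled by GABP 1 was higher (all genes 21.8%) and 2 were lower (36.9%), with a median of -0.19. That median was -0.10 without MEL culture A, -0.29 without MEL culture B and -0.12 after cyclic loess. Skp2, a subunit of an ubiquitin ligase that degrades cell cycle inhibitors, was 1.93-fold higher (0.95, limma adjusted p = 1.10e-04). Tfb1m, a mitochondrial ribosomal RNA methyltransferase (-0.62), and Cox4i1, a subunit of cytochrome oxidase (-0.46), were lower. Tfam, the mitochondrial transcription factor, did not pass (-0.15, adjusted p = 0.207). With MEL culture B left out 2 of these genes were higher and 4 lower, and after quantile normalization 1 was higher and 4 were lower.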

How the data were processed

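The authors deposited log2 values made by RMA in GeneSpring GX, per the labels. That the scale is log2 comes from the range of the values. Software version, filters and build were not given in the sources used here. The arrays' medians were alike at 5.78 to 5.91, but lower quartiles were 4.46 and 4.38 in MEL and 4.66 and 4.65 in ES-EP cultures A and B. After RMA, dim features sit on a floor, so low values may be background, and the number of arrays limits the precision.

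Of 35557 features 6613 control features were left out and 28944 tested. Features were named from the platform annotation, updated through Entrez identifiers with RefSeq (GRCm38.p6, 21698 matched): 21789 had 1 gene, 1621 several and 5534 none. The brightest feature represented a gene.

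MEL was compared with ES-EP with limma 3.58.1 in R 4.3.3 (lmFit, eBayes), with Benjamini-Hochberg adjustment over all tested features; the fit had 2 residual and 5.15 prior degrees of freedom. The procedure was tested on simulated data. P-values, intervals and standard errors use the spread between the 2 cultures of each group, drawn by eBayes towards a spread common to all tested features. With 5.15 prior against 2 residual degrees of freedom, the common spread weighs more. The cultures are not said to be independent lines, and an exact permutation test of 4 arrays cannot give a two-sided p under 0.333. Members and lists were chosen with earlier results of these data known. Of 125 listed genes 118 were measured and the other 7 are not analysed here. All members were named, and in each list the 2 passing genes with the largest difference each way, the 3 measured genes on either side of Spi1, Fli1, Ets1, Erg and Ets2, and the 3 genes nearest to Fli1 over the 4 values; other names were given for comparison or after their values were seen. Alternatives were 3 scalings, 2 priors, 2 feature sets, a gene's mean feature, the replicate letter as a block, and each culture left out.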

Additional observations from a re-analysis of the deposited data

How the results depend on the processing

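The differences of Fli1, Elk3 and Ets2 kept their direction and passed under every alternative run, with ranges given above, and Spi1 did not pass under any. After quantile normalization the difference was -0.16 for Spib and -0.20 for Gabpa, neither passing, 0.34 for Ets1, passing, and 0.10 for Erg, with the sign turned, so that 1 member was lower. After cyclic loess it was -0.11 for Spib and -0.22 for Gabpa, neither passing, 0.39 for Ets1 and 0.28 for Etv6, both passing, and 0.13 for Erg, so that 5 members were higher and 1 lower. Among the neighbours, Arhgap32 turned to 0.077 and 0.072 under these scalings and Dcps to 0.029 after cyclic loess. With array medians centred, where limma used 1 common variance, Spib (-0.26), Elf1 (-0.23) and Gabpa (-0.27) did not pass and 0 members were lower. Leaving out features under the median removed Spib, Erg and Ets1. Etv6 (0.23) then passed. Over the 9 lists together, with fewer genes tested, 24 genes were lower in place of 37 and 8 were higher by 2-fold in place of 14. Etv6 (0.23) also passed with only features of 1 gene. The cause of these changes was not tested.

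With each culture left out in turn, differences ran from -0.41 to -0.23 for Spib, -0.29 to 0.11 for Erg, 0.086 to 0.30 for Ets1, -0.36 to -0.24 for Elf1, 0.17 to 0.28 for Etv6 and -0.44 to -0.23 for Gabpa, and 3 to 5 members were higher and 0 to 3 lower; the single culture left is then assumed to vary like the other group. With the replicate letter as a block, 3 members were higher and 3 lower, with no call of a member changed. The A minus B differences of MEL and of ES-EP correlated at 0.11 across the 28944 features. With only 2 cultures per group this cannot show whether the letters pair cultures. In the lists, Fosb passed and Mpo did not under the block. The 4 arrays, and the lack of detection calls, limit what can be said of dim genes such as Erg, Ets1 and Spib.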
